A study of Mus musculus with 6 samples.

Results

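The genes described here are the 10 brakes on the cell cycle known as the CDK inhibitors and the Gadd45 genes. They are Cdkn1a, Cdkn1b and Cdkn1c of the CIP/KIP family, Cdkn2a, Cdkn2b, Cdkn2c and Cdkn2d of the INK4 family, and Gadd45a, Gadd45b and Gadd45g. They were found by their symbol in the platform's probe annotation, and each matched 1 of the 22206 transcript clusters measured. The set was chosen because Cdkn1a and Gadd45g were higher in mutant than in control ducts on these arrays. The values of that pair are therefore given as a description, without a test, and the other 8 genes came with their families.

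The tissue was the Müllerian duct of mouse embryos at E17.5, hybridised as 1 array per embryo for 6 embryos. From this duct develop the oviducts, uterus and upper vagina. The 3 mutant embryos had the genotype Lats1f/f,Lats2f/f,Amhr2cre/+ and the 3 control embryos Lats1f/f,Lats2f/f, so both groups carried the floxed alleles and the mutants alone carried Cre. Cre is driven from the Amhr2 locus, which is active in the mesenchyme around the duct. Which cells of the dissected tissue recombined was not measured here. The comparison asks how expression differs once the Hippo kinases LATS1 and LATS2, which restrain the coactivators YAP and TAZ, are targeted in that mesenchyme.

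Progress through the cell cycle is driven by cyclin-dependent kinases bound to cyclins. INK4 proteins bind CDK4 and CDK6 and keep cyclin D away from them, whereas CIP/KIP proteins bind complexes of cyclin and kinase, above all those of CDK2. GADD45 proteins are small stress-induced proteins that bind the kinase MAP3K4, which feeds the p38 and JNK cascades, and also bind PCNA and CDK1. Cdkn1a is a classical target of p53, and Gadd45b and Gadd45g respond to cytokines and to TGF-beta.

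The upstream sequences of the genes whose signals differed most are shown first, with Gadd45a beside its paralogs because its signal did not pass the test. Each is the 250 bases before an annotated start, from RefSeq on GRCm38.p6, read 5′ to 3′ on the gene's strand. Capitals mark matches on either strand to the TATA box (TATAA), the CCAAT box (CCAAT), the GC box (GGGCGG), the E-box CACGTG, or the p53 consensus with at most 1 mismatch. Cdkn1a has an upstream start (chr17:29090729-29090978, + strand) and a downstream start (chr17:29093519-29093768, + strand). The others are Gadd45b (chr10:80929841-80930090, + strand), Gadd45g (chr13:51846425-51846674, + strand) and Gadd45a (chr6:67037408-67037657, - strand).
Cdkn1a, upstream start: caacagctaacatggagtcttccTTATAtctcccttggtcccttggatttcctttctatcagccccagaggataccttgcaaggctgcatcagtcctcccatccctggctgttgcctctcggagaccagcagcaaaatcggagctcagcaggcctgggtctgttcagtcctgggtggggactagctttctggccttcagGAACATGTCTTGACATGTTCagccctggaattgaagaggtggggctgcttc
Cdkn1a, downstream start: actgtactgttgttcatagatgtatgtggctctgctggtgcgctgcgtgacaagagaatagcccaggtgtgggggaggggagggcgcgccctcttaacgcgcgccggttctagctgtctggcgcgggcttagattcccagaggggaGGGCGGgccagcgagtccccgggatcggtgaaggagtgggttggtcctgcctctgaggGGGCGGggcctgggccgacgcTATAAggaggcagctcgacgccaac
Gadd45b: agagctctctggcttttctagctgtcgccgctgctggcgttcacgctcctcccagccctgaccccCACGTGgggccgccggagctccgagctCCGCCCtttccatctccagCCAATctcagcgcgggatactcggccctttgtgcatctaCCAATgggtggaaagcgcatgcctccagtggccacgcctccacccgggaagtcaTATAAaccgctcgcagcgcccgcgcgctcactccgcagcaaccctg
Gadd45g: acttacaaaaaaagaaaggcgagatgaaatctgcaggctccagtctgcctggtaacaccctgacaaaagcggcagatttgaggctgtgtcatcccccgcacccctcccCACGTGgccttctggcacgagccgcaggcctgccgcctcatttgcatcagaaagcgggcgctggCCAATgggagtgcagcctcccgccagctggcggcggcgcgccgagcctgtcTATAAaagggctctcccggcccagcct
Gadd45a: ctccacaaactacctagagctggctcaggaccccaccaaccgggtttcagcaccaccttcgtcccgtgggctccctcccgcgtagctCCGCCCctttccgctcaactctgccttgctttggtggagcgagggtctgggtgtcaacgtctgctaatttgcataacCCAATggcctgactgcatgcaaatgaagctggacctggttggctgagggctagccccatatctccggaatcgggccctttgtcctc

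The downstream Cdkn1a window and those of Gadd45b and Gadd45g each held TATAA close to the start, beginning 25, 46 and 27 bases before it. The same letters were in 22.8% of all 32851 windows of the promoter table, counting both strands, and in 4 of the 12 windows of the members, the upstream Cdkn1a window being the fourth with a match 227 bases before its start. Gadd45b and Gadd45g were also the members whose windows held CACGTG, at 185 and 142 bases before the start, against 6.02% of all windows. CCAAT was in all 3 Gadd45 windows and in 33.8% of all windows. No member window held the TEAD motif GGAATG (12.6% of all windows) or the AP-1 motif TGANTCA (6.75%), which says only that these letters are not in these 250 bases. The CRE motif TGACGTCA was in the Cdkn2b window, 46 bases before the start, and in 1.55% of all windows.

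The upstream Cdkn1a window held the stretch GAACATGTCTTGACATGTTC, which begins 51 bases before the start and misses the full p53 consensus at 1 base. This search with 1 mismatch was added after the sequence was seen. Such a stretch was in 0.0761% of all windows and in 1 of the 12 windows of the members. The p53 half-site consensus was in 7.13% of all windows and, besides Cdkn1a, in those of Cdkn2d and Gadd45a. The windows of the members were searched for 9 of the 10 genes. Base composition differed between them: GC content was 54.0% in the upstream and 64.8% in the downstream Cdkn1a window, 65.2% for Gadd45b, 62.0% for Gadd45g and 59.2% for Gadd45a, against a median of 52.4% over all windows.

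Before the members, the arrays and their labels were checked. Lats1 averaged 11.50 ± 0.34 in mutant and 12.28 ± 0.20 in control ducts (log2 signal, SD, n = 3 each), a limma adjusted p of 0.0958. Lats2 averaged 11.64 ± 0.32 in mutant and 11.41 ± 0.22 in control ducts, and the position of their probes against the floxed exons is not known here, so neither gene checks the deletion. Amhr2, a defining marker of the mesenchyme and the gene that carries the Cre, fell by 3.73 ± 0.25 in mutant ducts (log2, SE), against a mean of 10.73 ± 0.20 (SD) in control ducts. The array of control 3 stood apart in urothelium markers. Averaged over the list, the 8 lay 3.54 above their means on the log2 scale, against -0.92 to -0.59 on the other 5 arrays. For smooth muscle markers the controls spread to both sides, with list means of -1.63 on control 1, -0.41 on control 2 and 1.52 on control 3. Single markers could differ from the list mean: Upk3b was at 13.39 on control 3 and 13.40 on control 2, and Tagln at 12.62 and 12.76. A gene is called below background where its signal is under the median of the antigenomic probes of its array, which ran from 5.35 to 5.88. In bulk tissue, more cells of a type and more RNA per cell cannot be told apart.

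Among the CIP/KIP genes, only Cdkn1a, which encodes p21, had groups that did not overlap. Its log2 signal was 12.75, 12.66 and 11.65 in mutant ducts 1, 2 and 3, against 10.20, 10.08 and 10.76 in control ducts 1, 2 and 3. Mutant 3 was the lowest of the mutants and control 3 the highest of the controls, and 0.89 separated them. The log2 fold change was 2.00 ± 0.31 (SE, n = 3 each), or 4.01-fold, a description since it chose the set. The spread of Cdkn1a within groups was larger than for 94.3% of tested rows.

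Cdkn1b and Cdkn1c had high signals that overlapped between the groups. Cdkn1b, which encodes p27, a brake that keeps cells in quiescence, was at 9.61, 9.47 and 9.80 in mutant ducts, against 9.70, 9.93 and 10.45 in control ducts. Control 3 was the highest of the 6 arrays. The log2 fold change of -0.40 ± 0.22 had a 95% interval from -0.89 to 0.09 (limma adjusted p = 0.441), so a fall of up to that size was not resolved from none. Cdkn1c, the imprinted gene for p57, was at 9.96, 10.20 and 9.79 in mutant ducts, against 10.24, 10.19 and 10.19 in control ducts. The controls were close together, and mutant 2 lay among them. Its log2 fold change was -0.22 ± 0.17, with an interval from -0.60 to 0.16 (limma adjusted p = 0.603).

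**Figure D1:**
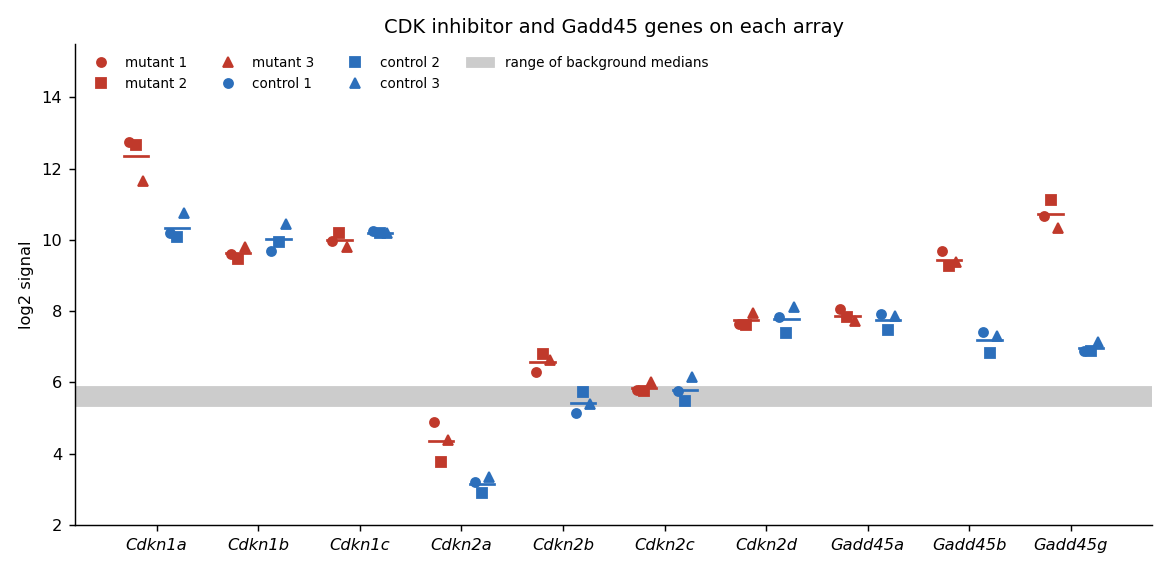
Log2 signal of the 10 genes on each array, with mutant arrays in red on the left and control arrays in blue on the right of each gene; bars are group means (n = 3 each) and the grey band is the range of the background medians, 5.35 to 5.88. The groups do not overlap for Cdkn1a, Cdkn2a, Cdkn2b, Gadd45b and Gadd45g, and all signals of Cdkn2a lie below the band.

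Of the INK4 genes, Cdkn2b rose and the other 3 did not pass the test. Cdkn2b encodes p15, an inhibitor of CDK4 and CDK6 that TGF-beta induces in epithelial cells. Its log2 signal was 6.30, 6.79 and 6.63 in mutant ducts, against 5.13, 5.73 and 5.40 in control ducts. All mutant arrays lay above background, whereas control 1 and control 3 lay below it. On all 6 arrays the signal was under the median of the negative-control rows. The log2 fold change was 1.15 ± 0.21, with a 95% interval from 0.68 to 1.62 (limma adjusted p = 0.0179). Dropping mutant 2 (adjusted p = 0.0720), mutant 3 (0.0655) or control 1 (0.0784) ended the call.

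Cdkn2a, whose locus encodes p16 and, from another reading frame, ARF, was below background on all 6 arrays. It was at 4.90, 3.77 and 4.39 in mutant ducts, against 3.21, 2.89 and 3.35 in control ducts. The mutants were the higher in every pair, but at this signal no fold is given. The limma adjusted p was 0.0504, just over the threshold of 0.05, and over the alternatives it ran from 0.0179 without mutant 2 to 0.171 without control 2. Which product of the locus the array row measures is not known here.

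The remaining INK4 genes differed little between the groups. Cdkn2c, which encodes p18, was at 5.78, 5.76 and 6.01 in mutant ducts, against 5.76, 5.49 and 6.14 in control ducts, all close to background. Cdkn2d, which encodes p19, was at 7.65, 7.61 and 7.96 in mutant ducts, against 7.84, 7.40 and 8.12 in control ducts. In both genes the control values spanned the mutant values. Their log2 fold changes were 0.05 ± 0.20 and -0.04 ± 0.22, with 95% intervals from -0.40 to 0.50 and from -0.53 to 0.44. Once each was centred on its mean, the profiles of Cdkn2c and Cdkn2d differed by a root mean square of 0.07 on the log2 scale. This was the smallest of all pairs of members, but the measure is small for any genes whose signals vary little. Cdkn2c was also under the median of the negative-control rows on every array.

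The Gadd45 family split, with Gadd45b and Gadd45g far higher in mutant ducts and Gadd45a near its control level. Gadd45g was at 10.68, 11.13 and 10.34 in mutant ducts, against 6.88, 6.89 and 7.14 in control ducts. The groups were 3.20 apart at their nearest arrays. The log2 fold change was 3.75 ± 0.22 (SE, n = 3 each), or 13.4-fold, which placed Gadd45g at rank 13 among the rises of all tested rows, again a description. The control signals were above the antigenomic background but below the medians of the negative-control rows on all 3 control arrays.

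Gadd45b did not itself choose the set, but it came with the family of Gadd45g, which did. Its test is therefore not fully independent of that choice. Gadd45b was at 9.69, 9.26 and 9.39 in mutant ducts, against 7.42, 6.84 and 7.31 in control ducts. All mutant arrays lay above all control arrays by at least 1.84. Gadd45b rose by 2.25 ± 0.21 on the log2 scale, or 4.77-fold, with a 95% interval from 1.79 to 2.72 (limma adjusted p = 0.000578). With any single array dropped it still passed, at an adjusted p of 0.00441 or less. It stood at rank 73 among the rises, with Cdkn1a at rank 106.

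Gadd45a, the member of the family that p53 is known to induce, was at 8.06, 7.83 and 7.72 in mutant ducts, against 7.93, 7.46 and 7.88 in control ducts. The groups overlapped. Its log2 fold change was 0.12 ± 0.19 (limma adjusted p = 0.833), and the upper end of its 95% interval, 0.55, lay below the lower end for Gadd45b. The difference between the paralogs themselves was not tested.

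**Figure D2:**
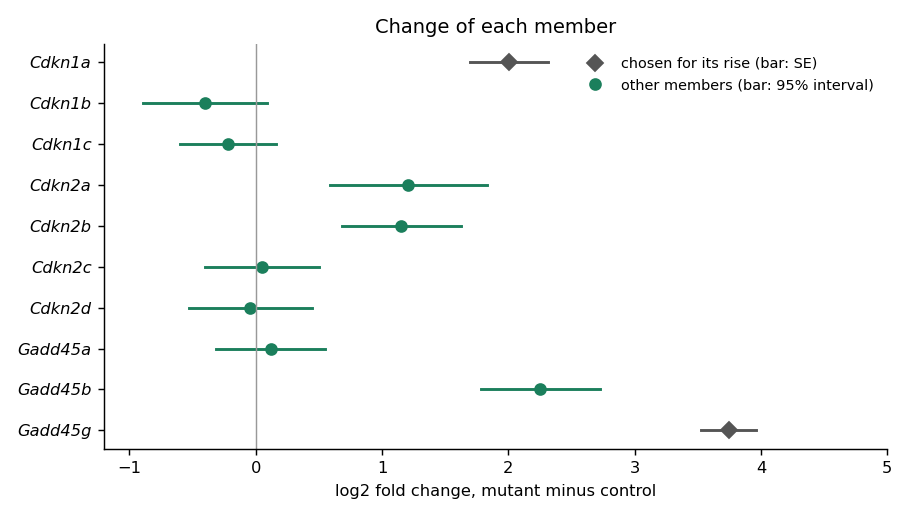
Log2 fold change of each gene, mutant minus control (n = 3 each). Grey diamonds with SE bars are Cdkn1a (2.00) and Gadd45g (3.75), which chose the set; green points with 95% intervals are the other 8, of which Gadd45b (2.25) and Cdkn2b (1.15) passed the test. The point of Cdkn2a is a difference between signals below background on all 6 arrays and stands for no fold.

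Of the 8 genes that did not choose the set, 2 passed the limma threshold of adjusted p under 0.05 and were higher in mutant ducts, Cdkn2b and Gadd45b, and none was lower. Over all tested rows 2.59% passed and were higher and 0.666% passed and were lower (3.26% in either direction). The groups did not overlap for 3 of these 8, with the mutants above in each, namely Cdkn2b, Gadd45b and, below background on all 6 arrays, Cdkn2a. Over all rows 10.9% had the mutants above without overlap. Since the families were taken in for the rise of their members Cdkn1a and Gadd45g, nothing more is read from these counts. Without control 3, in which the urothelium and smooth muscle list means were high, 2 of the other 8 still passed. The log2 fold changes of Cdkn1a and Gadd45g were then 2.21 and 3.83. Without control 1, the lowest array in smooth muscle markers, 1 of the other 8 passed.

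**Figure D3:**
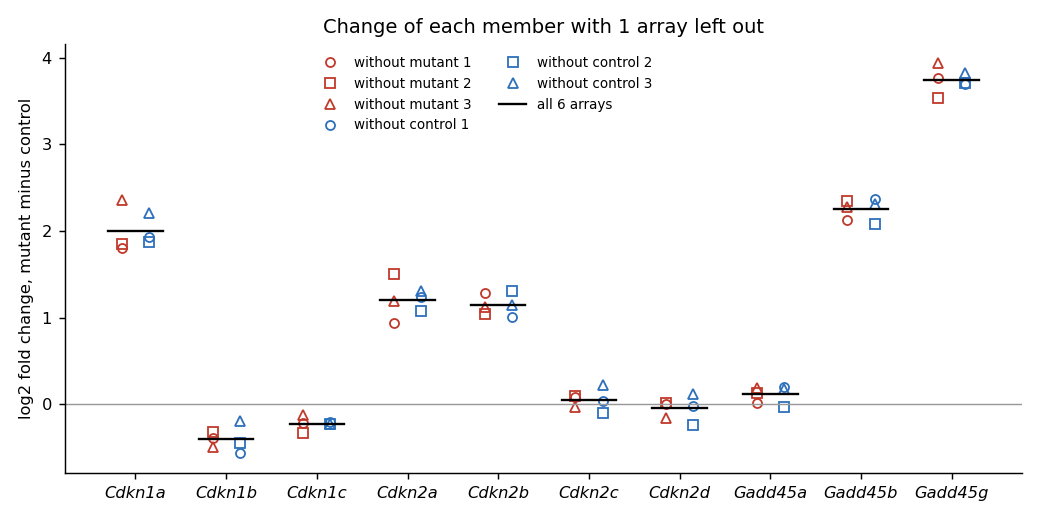
Log2 fold change of each gene over all 6 arrays (black bars) and with 1 array left out (open symbols, red for a mutant and blue for a control array left out). Cdkn1a ranges from 1.81 to 2.36, Cdkn2b from 1.01 to 1.31, Gadd45b from 2.08 to 2.37 and Gadd45g from 3.54 to 3.93, while Cdkn2c, Cdkn2d and Gadd45a lie on both sides of 0.

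The array of control 3 was also the highest of the controls for 6 of the 10 genes and the lowest for none, and control 2 was the lowest for 7. Among mutant arrays no single one was high throughout, with mutant 1 the highest for 4 genes and mutant 2 and mutant 3 for 3 each.

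The genes whose profile over the 6 arrays was most like that of Gadd45g were Bhlhe40, a transcriptional repressor of the circadian clock, Plaur, the urokinase receptor, Inhba, the activin beta A subunit, and Bmp4, a BMP ligand. Likeness was the root mean square difference between profiles centred on their means, searched over 18510 named rows. It was 0.17, 0.28, 0.32 and 0.34 on the log2 scale. For genes with large rises this measure mostly follows the size of the group difference, the value that chose Cdkn1a and Gadd45g. By size of rise Inhba, Bhlhe40, Plaur and Bmp4 stood at ranks 6, 11, 14 and 19, with Gadd45g at rank 13. No shared regulation is read from the likeness. Bhlhe40 was at 14.74, 14.78 and 14.47 in mutant ducts, against 10.83, 10.67 and 11.19 in control ducts. Mutant 2 and control 3 were the highest of their groups for Bhlhe40 and Bmp4, as for Gadd45g. For Plaur mutant 3 was the highest of the mutants, and for Inhba mutant 1 and control 1 were the highest of their groups. For Cdkn1a the most alike were Tnfaip2, a gene induced by TNF (0.17), Nexn, an actin-binding protein (0.19), Elapor2 (0.23) and Gdf6, a BMP family ligand (0.24). Tnfaip2 was at 10.30, 10.12 and 9.47 in mutant ducts, against 7.95, 7.70 and 8.72 in control ducts, with mutant 3 and control 3 nearest to each other as in Cdkn1a. Among the members themselves, the profile nearest to Cdkn1a was that of Gadd45b (0.41).

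Neighbouring genes were read for each member, the nearest 2 coding genes on each side in RefSeq order, chosen by position once the members' values were known. Around Cdkn1a, Srsf3, Stk38 and Cpne5 had log2 fold changes between -0.28 and 0.10, and around Gadd45g, Secisbp2, Sema4d, Diras2 and Syk between -0.23 and 0.39. Around Gadd45b, Timm13, Lmnb2, Gng7 and Diras1 lay between -0.58 and 0.26, and none of these neighbours passed the test. Diras2 was below background on all 3 mutant and 2 control arrays, and Lmnb2 on 2 mutant arrays and 1 control array. The Cdkn2a and Cdkn2b locus on chromosome 4 differed. Mtap, the methylthioadenosine phosphorylase gene beside Cdkn2a, was at 13.98, 13.40 and 13.56 in mutant ducts, against 12.44, 12.07 and 12.62 in control ducts. Every mutant array was above every control array, and Mtap rose by 1.27 ± 0.22 on the log2 scale (limma adjusted p = 0.0134). Mutant 1, control 1 and control 2 were each needed for the call (adjusted p up to 0.0570 when one was dropped). Farther out on either side, Ifne and Dmrta1 had log2 fold changes of -0.01 and 0.18. Ifne was below background on all 6 arrays and Dmrta1 on 2 mutant and all 3 control arrays, so these differences stand for no fold. Of the neighbours of the other members, Phlda2, the imprinted gene near Cdkn1c, passed (adjusted p = 0.0314) but lay below background on all 6 arrays, so no fold is given.

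The kinases and cyclins on which the inhibitors act changed little. Ccnd1 and Ccnb1 were not measured under their symbols. Over all tested rows 2.59% passed and were higher and 0.666% passed and were lower. Of 13 CDKs, CDK-activating subunits and cyclins measured, 1 rose and none fell, with a median log2 fold change of -0.06 against -0.01 over all rows. The one that rose was Cdk6, the partner of the D cyclins that INK4 proteins bind. Cdk6 averaged 13.15 ± 0.16 in mutant and 12.22 ± 0.11 in control ducts, higher by 0.93 ± 0.17 (limma adjusted p = 0.0166), and missed the threshold when mutant 1, mutant 3 or control 1 was dropped (adjusted p up to 0.0811). None of 13 pocket proteins and E2F factors passed in limma (1 at an unadjusted p under 0.05), and Tfdp2, a partner of E2F, had the smallest p, with -0.48 ± 0.18 (adjusted p = 0.244).

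Genes of S phase and mitosis did not pass singly either. Of 23 measured none passed in limma (5 at an unadjusted p under 0.05), their median was -0.22 against -0.01 over all rows, and 18 of the 23 had a log2 fold change under 0, as had 11433 of all 22206 rows. Whether the list as a whole shifted was not tested. Mcm5, a subunit of the replicative helicase, had the smallest p, with -0.60 ± 0.17 (adjusted p = 0.116). Of 11 other antiproliferative genes none passed in limma (0 at an unadjusted p under 0.05), with a median of -0.05. Tob1 had the smallest p there, with -0.39 ± 0.21 (adjusted p = 0.445).

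Genes of the p53 pathway, the best known inducer of Cdkn1a, rose in 2 of 21 cases and fell in none. Among all tested rows 2.59% rose and 0.666% fell. The list leaves out the members, and its median log2 fold change was 0.32, with 15 genes above 0 and 6 under 0. Trp53 itself, Bax and Gdf15 were not measured under their symbols. Ccng1, cyclin G1, was at 14.20, 13.59 and 13.73 in mutant ducts, against 12.39, 12.55 and 12.53 in control ducts. It rose by 1.35 ± 0.20, or 2.55-fold (limma adjusted p = 0.00588). Phlda3, an inhibitor of AKT, was below background on all control arrays and on mutant 3. On every array its signal was under the median of the negative-control rows. Phlda3 was at least 1.36-fold higher in mutant ducts when the control is taken at background (limma adjusted p = 0.0319). Dropping mutant 1, mutant 2, control 1 or control 3 took it over the threshold (adjusted p up to 0.117).

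The machinery around the members showed few calls, where 2.59% of all tested rows rose and 0.666% fell. Of 12 measured genes of the p38 and JNK cascade that GADD45 proteins engage, none rose and 1 fell. This was Map2k6, a kinase that activates p38, at 9.79 ± 0.22 in mutant and 10.70 ± 0.02 in control ducts, a difference of -0.90 ± 0.17 (limma adjusted p = 0.0211). The fall passed with mutant 1 dropped but with no other array dropped (adjusted p up to 0.0816). None of 12 ubiquitin ligases and cofactors that degrade CDK inhibitors passed in limma (2 at an unadjusted p under 0.05), and Cul4b, a cullin scaffold, had the smallest p, with -0.66 ± 0.18 (adjusted p = 0.103). Of 18 transcriptional regulators of these genes 1 rose, Klf6, a zinc finger factor that activates Cdkn1a, with 0.86 ± 0.19 (limma adjusted p = 0.0463). It passed with control 3 dropped but with no other array dropped (adjusted p up to 0.166), nor with the replicate number as a block (0.0502).

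**Figure D4:**
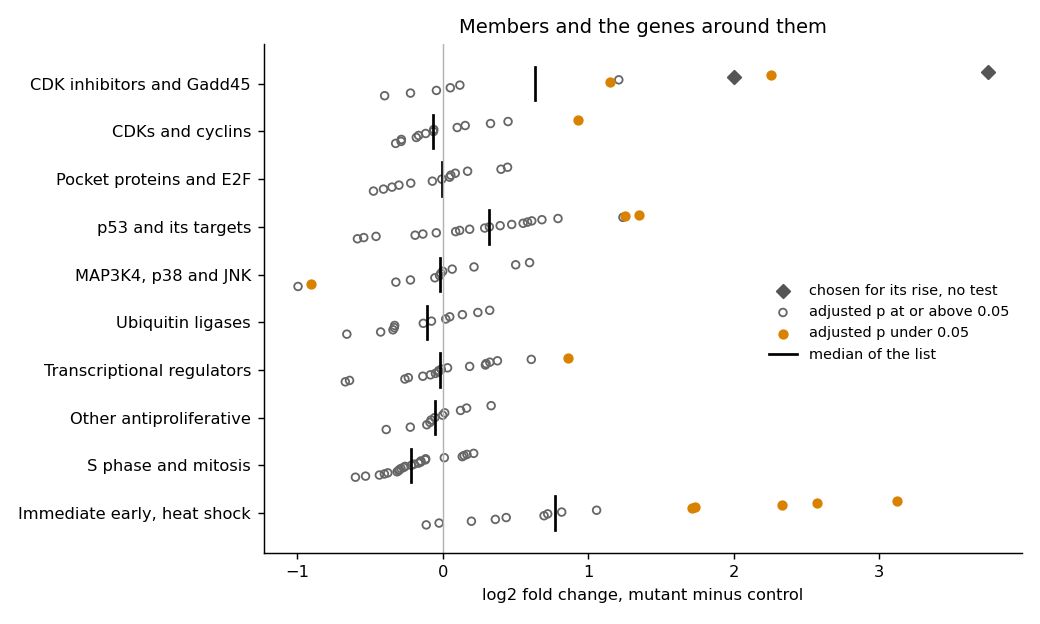
Log2 fold change, mutant minus control, of each measured gene in the set and in the lists around it; filled orange points passed the limma threshold, open points did not, grey diamonds are Cdkn1a and Gadd45g, and black bars are list medians. The medians of the CDK and cyclin (-0.06), E2F (-0.01) and turnover (-0.11) lists lie near 0, those of the p53 (0.32) and immediate early (0.77) lists above it.

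Immediate early and heat shock genes, which handling of tissue can raise, moved with the same groups. Over all tested rows 2.59% rose and 0.666% fell. Of the 14 list genes measured 5 rose and none fell, with a median of 0.77. They were Ier3, a survival factor (3.12 ± 0.27, limma adjusted p = 0.000389), Fos (1.71 ± 0.24, 0.00449), the chaperones Hspa1a (2.33 ± 0.34, 0.00640) and Hspa1b (2.57 ± 0.46, 0.0163), and Egr1 (1.73 ± 0.34, 0.0262), which completes the count. Hspa1b needed mutant 1, control 1 and control 2 (adjusted p up to 0.0697), and Egr1 mutant 1, mutant 2 and control 2 (up to 0.101). The count was 3 without mutant 1 or control 2 and 7 without control 3. The mean deviation of this list ran from 0.53 to 0.60 on mutant arrays and from -0.72 to -0.23 on control arrays, beside 0.41 to 0.58 and -0.67 to -0.28 for the 10 genes. In both, control 3 was the control nearest to the mutants. The 10 genes include Cdkn1a and Gadd45g, chosen for their rise, so the separation of their mean follows in part from that choice. The part of the immediate early and heat shock genes in the rise of Cdkn1a, Gadd45b and Gadd45g was not tested.

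Markers of macrophages, which a dissected duct also holds, were higher in mutant ducts as well. Of 11 measured 7 rose and none fell, against rises in 2.59% and falls in 0.666% of all tested rows. The mean deviation of the 11 ran from 0.47 to 0.70 on mutant arrays and from -0.61 to -0.52 on control arrays. C1qc and C1qb, subunits of complement C1q, rose by 1.63 ± 0.16 and 1.52 ± 0.16 (limma adjusted p = 0.000831 and 0.00105). All 11 were above background on all 6 arrays. Their part in the members' values was not tested.

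Other cell types moved less evenly, and the share of all tested rows was again 2.59% for rises and 0.666% for falls. Of 9 mesenchyme markers 1, Amhr2, passed and fell (limma adjusted p = 0.000112), against 3 without mutant 2. The mean deviation of the list ran from -0.60 to -0.05 on mutant and from 0.35 to 0.40 on control arrays. It includes Amhr2, the gene that carries the Cre, whose log2 fold change of -3.73 was the lowest of the list. The mean without Amhr2 was not computed. Of the 9 markers 7 had log2 fold changes under 0 and 2 above, with a median of -0.69. Wnt4 was higher by 1.00 ± 0.23 (limma adjusted p = 0.0530). Of 8 smooth muscle markers Tagln rose, by 2.92 ± 0.31 (adjusted p = 0.00108), while Acta2 (2.00 ± 0.69) did not pass, and 3 rose without control 3. The median of that list was 0.09, and 4 of the 8, Actg2, Myh11, Des and Lmod1, had log2 fold changes under 0, from -2.16 to -0.15, none of them past the threshold. Of 8 endothelium markers Kdr rose, by 1.10 ± 0.16 (adjusted p = 0.00623), and Cldn5 had -0.45 ± 0.20. In that list 6 of the 8 had log2 fold changes under 0 and 2 above, with a median of -0.23. Of 9 epithelium markers Lhx1 passed while under background on all 6 arrays (adjusted p = 0.0358), and passed no longer when a mutant, control 2 or control 3 was dropped, and Emx2 had -0.71 ± 0.23. None of 8 urothelium markers passed in limma (0 at an unadjusted p under 0.05), with Upk1b at an adjusted p of 0.376. Trp63 (adjusted p = 0.363) was above background on control 3 alone. The parts of these cell types in the members' values were not tested.

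**Figure D5:**
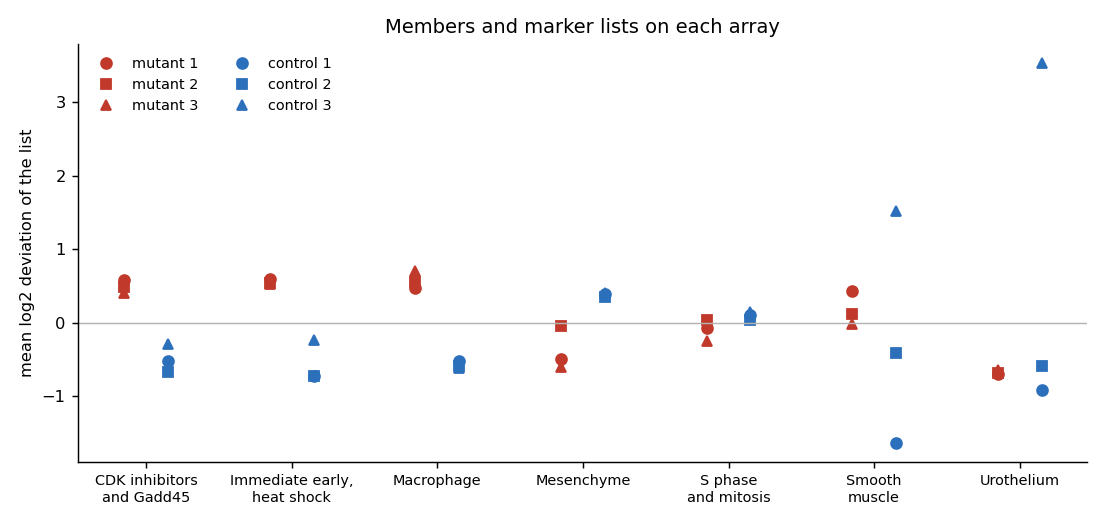
Mean deviation on the log2 scale of the 10 genes and of 6 other lists from their means over the 6 arrays, by array, with mutants in red on the left and controls in blue on the right of each list. The members, the immediate early list and the macrophage markers separate the groups in the same direction, mesenchyme markers in the other. The members include Cdkn1a and Gadd45g, chosen for their rise, and the mesenchyme list includes Amhr2, which carries the Cre. The urothelium list stands at 3.54 on control 3 alone.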

How the data were processed

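Total RNA from Müllerian ducts of 6 embryos was hybridised to Affymetrix arrays. The authors deposited 1 table of log2 signals, 1 column per array. Per the submitters' processing notes, the software was Transcriptome Analysis Console 4.0. How the arrays were normalized, and on which build, is not given in the sources read, and the values were analysed as deposited. Medians over the 22206 tested transcript clusters lay between 6.87 and 6.95. Tests excluded control rows. Background was the median of 23 antigenomic probes per array; the medians of the 5222 negative-control rows, 7.09 to 7.41, were not used for it. The number of arrays limits the precision.

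Groups came from the labels. Differences were tested with limma 3.58.1 (lmFit, eBayes; R 4.3.3), genotype as the only term, two-sided, with Benjamini-Hochberg adjustment over all tested rows. The threshold was 0.05 and intervals are at 95%. The fit was tested on simulated data. The members and lists were chosen with earlier results of these data known. All 10 members are named. Of each list the up to 4 called genes with the smallest p are named, or the 1 with the smallest p where none passed, 2 of each marker list, and the 4 most alike to Cdkn1a and Gadd45g. Genes named outside this rule, after their values were seen, are Egr1, Actg2, Myh11, Des, Lmod1 and the neighbours. List genes not measured under their symbol were not analysed here. They were Ccnb1, Ccnd1, Trp53, Bax, Gdf15, Map2k7, Btg3, Foxm1, Mcm7, Cd68 and Pdgfra. Where several rows carried a symbol, the row with the highest mean was used. Plots used matplotlib 3.10.9 (Python 3.11.15).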

Additional observations from a re-analysis of the deposited data

How the results depend on the processing

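The fit was repeated with each array dropped, with a threshold of 0.01, with other scalings (quantile, common median), without dim rows (under the 25th percentile or under the median), with a trended robust prior, with weights per array, with a replicate block, on rows with 1 symbol, with a gene's rows averaged, and with an unequal-spread test. The log2 fold changes of Cdkn1a, Gadd45g and Gadd45b kept their direction in all of them, and Gadd45b passed in every limma fit, with adjusted p from 0.000101 to 0.00441.

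Rows lower in mutant ducts numbered 148, against 257 without rows under the median signal, 243 with the trended prior and 39 at a threshold of 0.01, where 260 of 575 rises were left. Of the 8 members that did not choose the set, 2 rose. The count was 1 without dim rows under the median, which leave out Cdkn2b, and 1 at the threshold of 0.01. The filter at the median and the trended prior each gave 1 fall among the ligases and 1 among the regulators, and the filter 1 fall in S phase and mitosis. With the replicate block 0 regulators rose, since Klf6 was lost. Of the 8 members 3 rose with the block, the common median, the trended prior, array weights or rows with 1 symbol, since Cdkn2a then passed (adjusted p = 0.0274, 0.0451, 0.0256, 0.0315 and 0.0469). The block left 502 rises and 131 falls over all rows. Same-numbered arrays share only a number: the correlations of their deviations were 0.01, 0.04 and -0.003. At the threshold of 0.01 the rises were 0 for kinases and cyclins, 1 for p53, 0 for regulators and 3 for immediate early genes, with 0 falls in the p38 and JNK list. The unequal-spread test gave 0 rises and 0 falls over all rows (2332 at an unadjusted p under 0.05) and 0 of the 8 members (3 unadjusted), hence 0 in each list.

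Leaving out 1 array gave 305 to 565 rises and 55 to 132 falls over all rows and 1 to 2 rises among the 8 members. Rises ran from 0 to 1 for kinases and cyclins and for regulators, from 1 to 2 for p53 and from 3 to 7 for immediate early genes, and falls from 0 to 1 in the p38 and JNK list. Without mutant 1 all rows had 305 rises and 55 falls, without mutant 3 there were 92 falls, without control 1 320 rises and 64 falls, and without control 2 378 and 76. Cdkn2a could not be fitted where dim rows were left out. Signals near background, those of Cdkn2a, Cdkn2b and Cdkn2c, limit what these arrays resolve. Of the mesenchyme markers 1 fell, against 2 with the block, either filter, the trended prior or array weights, and 1 to 3 with 1 array left out; 1 rose with 6 of the settings, against 0. The cause of these differences was not tested.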
